A study of Mus musculus with 1600 samples.

Results

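The smooth muscle contractile genes described here are Acta2, Myh11, Tagln, Cnn1, Myl9, Tpm1, Tpm2, Mylk, Rgs5 and Sncg, 10 of the 45792 genes in the deposited tables, taken by name. They were followed in single wells of mouse glomerular cell suspensions, across cell classes and between diabetic and control animals. All animals lacked Nos3, the endothelial nitric oxide synthase (Nos3-/-, C57BL/6), and were 10 weeks old. The Diabetes mice had received streptozotocin, a toxin of pancreatic beta cells, from the age of 8 weeks at 50 μg per g body weight a day on 5 days in a row, and the Control mice citrate vehicle on the same schedule. Each group comprised 2 pools, 1 from each of 2 experiments, and each pool held glomeruli of 3 mice, so that 4 pools are the replicates of every comparison (Diabetes 1, Diabetes 2, Control 1, Control 2). Cells were captured on a Fluidigm C1 800-well array, the 2 pools of an experiment side by side on 1 array, and the number of cells in every well was read from an image.

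Smooth muscle shortens when myosin heads pull on actin filaments. A calcium signal switches on myosin light chain kinase, the kinase phosphorylates the regulatory light chain, and the heavy chain then cycles along the thin filament, whose access is tuned by tropomyosin and calponin. In the glomerulus this set marks the muscle cells of the arterioles, while mesangial cells, the pericytes of the capillary tuft, are contractile as well and are known to raise smooth muscle actin when injured. Many of these genes are known targets of serum response factor, which binds a sequence called the CArG box.

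In mm10 coordinates, from GENCODE, Acta2 (ENSMUSG00000035783.8, smooth muscle actin) lies at chr19:34241090-34255590, Myh11 (smooth muscle myosin heavy chain) at chr16:14194535-14291372 and Mylk (myosin light chain kinase) at chr16:34745210-35002420. Myl9 (regulatory light chain) lies at chr2:156775420-156781658, and the tropomyosins Tpm1 and Tpm2 lie at chr9:67022590-67049406 and chr4:43514711-43523765. The thin filament proteins Tagln (transgelin) and Cnn1 (calponin) lie at chr9:45929619-45936058 and chr9:22099216-22109630. Rgs5, a regulator of G protein signalling used as a pericyte marker, lies at chr1:169655501-169695813, and Sncg, gamma-synuclein, at chr14:34370274-34374789. The promoters of 3 of the genes are shown because these genes varied together from well to well. They are the RefSeq windows (GRCm38.p6) of 250 bases before to 50 bases after the start, read on the strand of the gene, at chr19:34255324-34255623 (minus strand) for Acta2, chr2:156775214-156775513 (plus strand) for Myl9 and chr4:43523505-43523804 (minus strand) for Tpm2. Capitals mark exact matches to the CArG box pattern, CCWWWWWWGG with W for A or T.
Acta2: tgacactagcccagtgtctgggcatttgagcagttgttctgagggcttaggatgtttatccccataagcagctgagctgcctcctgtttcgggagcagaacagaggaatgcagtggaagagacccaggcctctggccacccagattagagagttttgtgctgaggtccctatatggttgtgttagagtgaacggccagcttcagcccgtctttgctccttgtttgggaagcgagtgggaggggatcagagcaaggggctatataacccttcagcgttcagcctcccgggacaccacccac
Myl9: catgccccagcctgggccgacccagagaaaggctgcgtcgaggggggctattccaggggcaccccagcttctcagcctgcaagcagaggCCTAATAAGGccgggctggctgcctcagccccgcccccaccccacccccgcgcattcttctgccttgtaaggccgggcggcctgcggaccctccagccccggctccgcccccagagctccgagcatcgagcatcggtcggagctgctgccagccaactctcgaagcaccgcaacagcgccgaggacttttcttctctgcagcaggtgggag
Tpm2: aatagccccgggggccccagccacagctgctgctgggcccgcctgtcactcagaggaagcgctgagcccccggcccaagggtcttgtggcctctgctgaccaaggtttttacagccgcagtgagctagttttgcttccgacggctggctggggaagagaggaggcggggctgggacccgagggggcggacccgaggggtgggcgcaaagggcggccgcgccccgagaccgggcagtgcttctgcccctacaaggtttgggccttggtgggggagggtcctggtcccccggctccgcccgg
The CArG pattern as a whole is its own reverse complement, so that 1 search covers both strands. Near matches were not counted, such as ccctatatgg in the Acta2 window, which differs from the pattern by 1 base. A window without capitals may therefore still hold a CArG-like sequence. An exact match was found in 1 of the 8 members that have an entry in the promoter table. That promoter was Myl9, where the box begins at position -161. The same search over all 32851 promoters of this length found the box in 1.63%. The letters TATAAA, searched on both strands, were in none of the 8 and in 13.6% of all promoters. A match describes these windows alone and does not show a binding site.

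Of the 1600 wells, 833 had been imaged with 1 cell, and 639 of these passed the filters (at least 500 genes, at most 30% mitochondrial reads), 128 and 188 in the Diabetes pools and 120 and 203 in the Control pools. Median reads per kept well were 43577 and 176715 in Diabetes and 32222 and 219072 in Control, so that experiment 2 was the deeper in both groups. Sex-linked transcripts separated the groups. Xist had 1.42 and 1.40 CPM (counts per 1000000 counts of the pool) in the Diabetes pools against 356 and 442 CPM in the Control pools, and 4 Y-linked genes summed to 154 and 160 CPM in Diabetes against 0.279 and 0.605 CPM in Control. Sex and diabetes therefore cannot be told apart in any comparison below. Nos3 still had 41.7 to 64.8 CPM in the 4 pools, with no wild-type pool to set this against. The 588 wells imaged empty carried reads of all 10 genes, and free RNA may add to every level given here. Nothing in the labels says whether reads cover whole transcripts, and levels are compared between wells and pools but not between genes.

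Wells were clustered without the 10 genes, and classes were named by separate marker genes. The 294 endothelial-like, 124 mesangial-like, 83 immune-like, 55 podocyte-like and 26 tubular-like wells made up most of the set. A cluster of 19 wells stayed unnamed and is called Sparcl1-led after its first gene. Of the markers it was scored on, 10 of 11 mesangial and 11 of 12 smooth muscle or renin cell markers had reads in at least 25% of its wells, and each of these lists had 3 genes among its 50 leading genes. Reads in at least 25% of its wells were also found for 13 of 14 endothelial, 9 of 11 podocyte and 4 of 7 fibroblast markers. The summed endothelial markers had 1240 and 6001 CPM in Diabetes and 12697 and 5126 CPM in Control, the summed fibroblast markers 2737 and 951 CPM in Diabetes and 1014 and 13162 CPM in Control, and the summed mesangial markers 4150 and 7787 CPM in Diabetes and 2539 and 4574 CPM in Control. The part of these markers in the levels of this cluster was not tested. Renin (Ren1) was very uneven in it, with 0 and 325 CPM in the Diabetes pools and 37430 and 231 CPM in the Control pools. The Sparcl1-led wells numbered 3 and 4 in Diabetes and 6 and 6 in Control, too few for a test between the groups. The same 19 wells formed the cluster when the 10 genes were left in. With mitochondrial reads held to 15% no such cluster formed, and Myh11 then averaged 423 CPM over the 4 pools of mesangial-like wells.

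The contractile genes were concentrated in the Sparcl1-led wells, but to very different degrees. These wells, 19 of 639, held 95.1% of all Myh11 reads in kept wells, 91.0% of Cnn1, 62.5% of Tagln, 58.4% of Rgs5 and 49.9% of Acta2. They held 26.4% of Tpm2, 23.2% of Sncg, 19.5% of Myl9, 12.3% of Tpm1 and 7.2% of Mylk. These shares weigh the deeper pools more, and they differed between pools. Of the Acta2 reads the Sparcl1-led wells held 71.5% and 9.80% in Diabetes and 59.2% and 71.7% in Control, with 82.8% in the mesangial-like wells of Diabetes 2. Of the Tagln reads they held 90.3% and 37.0% in Diabetes and 69.2% and 65.1% in Control, and of the Myh11 reads 98.4% and 69.3% in Diabetes and 95.4% and 98.5% in Control. Over the 4 pools together, the mesangial-like wells held the largest share of any class for Myl9, Tpm2, Mylk and Tpm1, at 72.9%, 70.0%, 49.4% and 45.0%. In Diabetes 1 alone, the Sparcl1-led wells held more than the mesangial-like wells of Myl9 (53.4% against 45.9%) and Tpm2 (50.1% against 48.8%). Of Mylk in that pool, the endothelial-like wells held 656 reads and the mesangial-like wells 439. Myh11 was the most concentrated of the members read in all pools, while Mylk and Tpm1 were spread over several classes. The classes come from clustering of the same wells, and these shares are a description with no test.

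Myh11, the heavy chain that defines differentiated smooth muscle, had 5622 and 695 CPM in the Sparcl1-led wells of the Diabetes pools and 695 and 1796 CPM in those of the Control pools. In mesangial-like wells it had 19.2 and 17.3 CPM in Diabetes and 0 and 0.142 CPM in Control. The 4 pools of the Sparcl1-led wells lay above every other class and above the empty wells, whose highest pool had 45.4 CPM. Tagln, an actin-bundling protein of the thin filament, had the same order. It had 7000 and 1550 CPM in Diabetes and 1801 and 2814 CPM in Control in the Sparcl1-led wells, against 162 and 278 CPM in Diabetes and 154 and 186 CPM in Control in mesangial-like wells. Cnn1, the calponin that inhibits myosin cycling, was read in 6 of the 639 wells. Its 636 CPM came from the Sparcl1-led wells of Diabetes 1, and that class had 0 CPM in the other pools.

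Acta2 stood high in 2 classes. In the Sparcl1-led wells it had 5837 and 1956 CPM in Diabetes and 1275 and 7315 CPM in Control, and in mesangial-like wells 622 and 1846 CPM in Diabetes and 135 and 376 CPM in Control. The ranges of the 2 classes overlapped. Endothelial-like wells had 3.33 and 29.2 CPM in Diabetes and 25.4 and 16.8 CPM in Control, against 62.3 and 147 CPM (Diabetes) and 38.4 and 390 CPM (Control) of empty wells. After thinning to 10000 reads a well, Acta2 had a read in 18 of 18 Sparcl1-led wells and in 38 of 120 mesangial-like wells (31.7%). It had one in 22 of 281 endothelial-like (7.83%) and 3 of 55 podocyte-like wells (5.45%). No such share was computed for empty wells, and the part of free RNA in these shares was not tested. Median reads before thinning ran from 28204 to 256000 in the mesangial-like and from 27196 to 229102 in the endothelial-like pools.

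**Figure D1:**
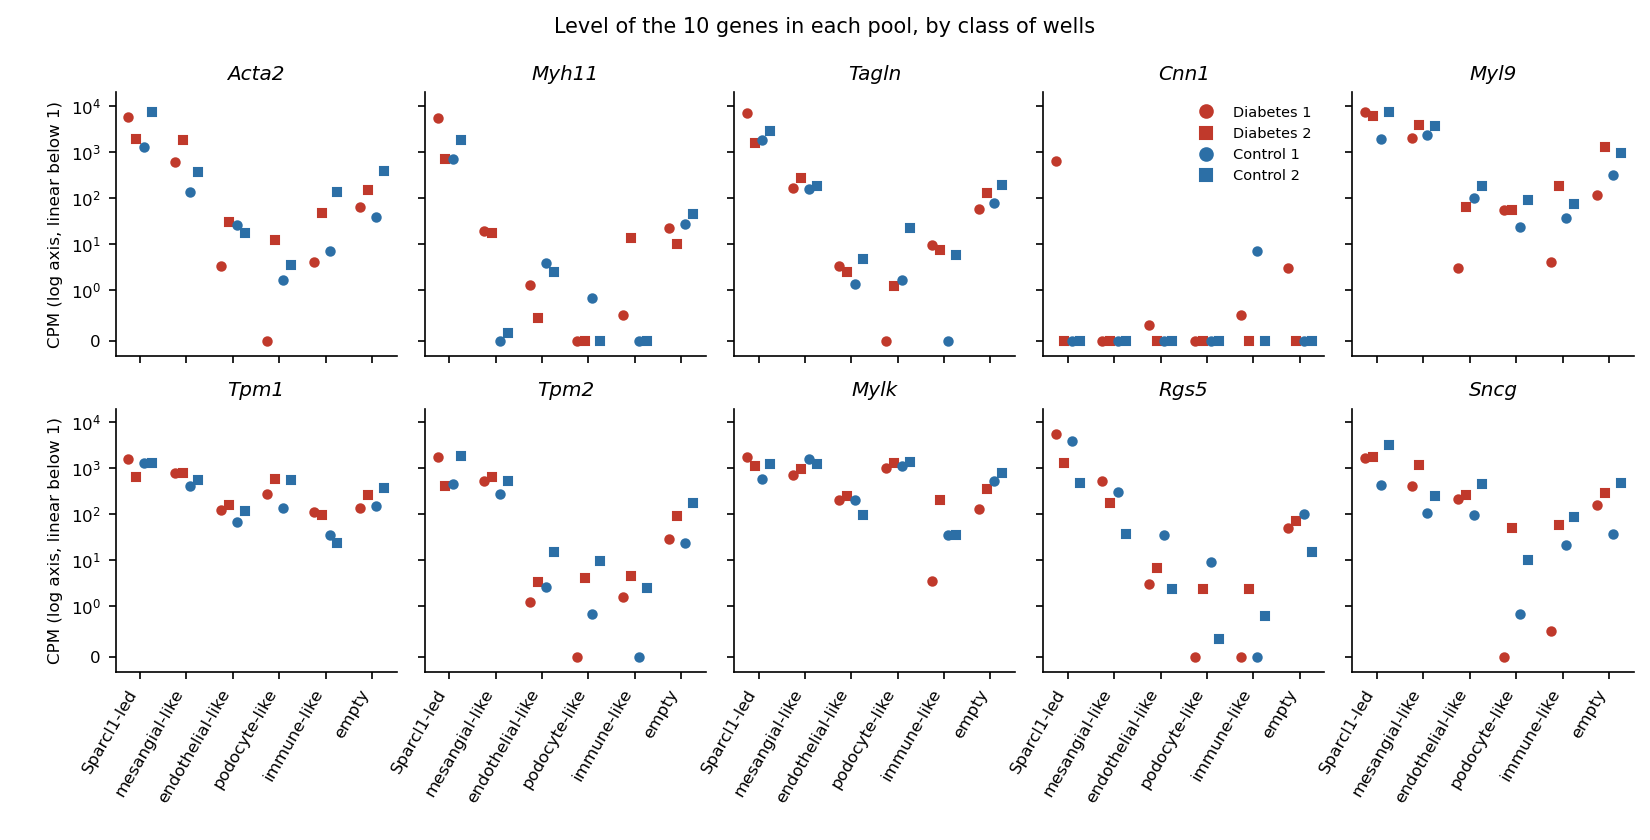
Level of each gene in CPM (log axis, linear below 1) by class of wells, with 1 point per pool, Diabetes red and Control blue, circles experiment 1 and squares experiment 2. Myh11 and Tagln were highest in the Sparcl1-led wells in all 4 pools, Mylk overlapped between podocyte-like and mesangial-like wells, and the endothelial-like values of Acta2 lay between 3.33 and 29.2 CPM.

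Rgs5, the pericyte marker, followed the Sparcl1-led wells with a wide spread, at 5619 and 1312 CPM in Diabetes and 3993 and 467 CPM in Control. Its mesangial-like levels were 522 and 178 CPM in Diabetes and 304 and 37.5 CPM in Control, so that the ranges of the classes overlapped. The empty wells had 50.7 and 72.0 CPM in Diabetes and 102 and 14.9 CPM in Control.

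The light chain Myl9 was abundant in both the Sparcl1-led and the mesangial-like wells. It had 7636 and 6269 CPM in Diabetes and 1940 and 7440 CPM in Control in the Sparcl1-led wells, and 2003 and 3874 CPM in Diabetes and 2391 and 3731 CPM in Control in mesangial-like wells. It was read in 108 of 120 mesangial-like wells after thinning (90.0%), against 61 of 281 endothelial-like wells (21.7%). Tpm2, a tropomyosin of muscle, had 531 and 655 CPM in Diabetes and 275 and 532 CPM in Control in mesangial-like wells, and at most 15.2 CPM in any endothelial-like or podocyte-like pool. The other tropomyosin, Tpm1, was less selective. It had 800 and 792 CPM in Diabetes and 407 and 542 CPM in Control in mesangial-like wells, and 132 to 569 CPM in the podocyte-like pools. Empty wells had 135 and 261 CPM of Tpm1 in Diabetes and 150 and 365 CPM in Control. The endothelial-like wells, at 123 and 154 CPM in Diabetes and 65.6 and 116 CPM in Control, lay below the empty wells of every pool. The podocyte-like wells lay below them in Control 1.

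Mylk, the kinase that starts contraction, overlapped between these classes and the podocyte-like wells. It had 1025 and 1278 CPM in Diabetes and 1139 and 1339 CPM in Control in podocyte-like wells, and 701 and 984 CPM in Diabetes and 1589 and 1217 CPM in Control in mesangial-like wells. The pools of the Sparcl1-led wells, at 570 to 1775 CPM, overlapped both. After thinning, Mylk was read in 51 of 55 podocyte-like wells (92.7%) and 108 of 120 mesangial-like wells (90.0%). In endothelial-like wells it had 199 and 244 CPM in Diabetes and 207 and 96.3 CPM in Control, against 128 and 353 CPM (Diabetes) and 535 and 781 CPM (Control) in empty wells, so that in Diabetes 1 alone it lay above the empty wells of its pool. The Diabetes 1 value for podocyte-like wells rests on 1 well.

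Sncg, a synuclein with no known part in contraction, was the 1 member with a large endothelial share. Endothelial-like wells, 294 of the 639 kept wells, held 42.5% of its reads, at 216 and 266 CPM in Diabetes and 95.3 and 458 CPM in Control. Empty wells had 161 and 287 CPM in Diabetes and 37.1 and 474 CPM in Control. In Diabetes 2 and Control 2 the endothelial-like level thus lay below that of the empty wells. Per pool, Sncg was higher in the Sparcl1-led wells, at 1681 and 1785 CPM in Diabetes and 432 and 3147 CPM in Control. It was read in 112 of 281 endothelial-like wells after thinning (39.9%) and in 45 of 120 mesangial-like wells (37.5%), but in 5 of 55 podocyte-like wells (9.09%).

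Within the Sparcl1-led cluster the members differed between wells. After thinning, a median of 8 of the 10 genes was read per well, with 5 the fewest and 10 the most in 18 wells. Mesangial-like wells had a median of 4, endothelial-like and podocyte-like wells 2, and immune-like wells 1. The 3 wells of Diabetes 1 had 47.4 to 69.3 Acta2 counts per 10000 reads and all had Myh11, Tagln and Rgs5 as well. In the 6 wells of Control 1, Rgs5 had a median of 50.0 counts per 10000 and Acta2 one of 5.36. In the 6 wells of Control 2 the medians were 50.1 for Acta2 and 0 for Rgs5. The Control 1 well of this cluster with most Acta2 reads had no Ren1 reads. Neither had the wells with most Acta2 reads in the other pools. Picked by reads, such a well need not be the highest per 10000 reads.

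**Figure D2:**
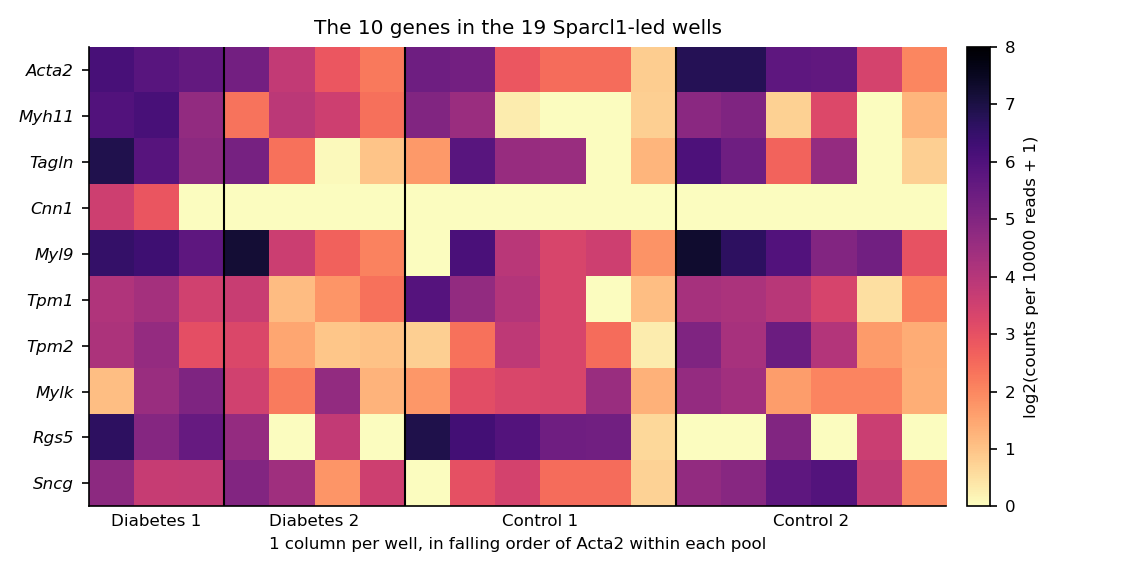
Each column is 1 of the 19 Sparcl1-led wells, grouped by pool and in falling order of Acta2, and each row is a gene, coloured by log2 of counts per 10000 reads plus 1. Cnn1 is present in Diabetes 1 alone, Rgs5 is high in 5 of 6 Control 1 wells and missing from 4 of 6 Control 2 wells, and Mylk is present in every well.

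A few wells supplied most of the reads of the strictest genes. Over all 639 kept wells, the top well held 51.2% of Myh11 reads, 51.3% of Cnn1, 28.03% of Acta2 and 27.1% of Tagln, and 10.96% or less of each other member. The top 5 wells held 99.3% of Cnn1, 82.3% of Myh11, 61.2% of Acta2, 58.1% of Tagln, 42.6% of Rgs5, 33.2% of Tpm2, 28.4% of Sncg, 25.2% of Myl9, 16.3% of Tpm1 and 13.2% of Mylk. Put the other way, 1 well reached 50% of the Myh11 reads, 4 wells reached it for Acta2 and for Tagln, and 38 wells were needed for Mylk. All of the 10 top Myh11 wells were Sparcl1-led, whereas the 10 top Acta2 wells were split evenly, 5 and 5, between Sparcl1-led and mesangial-like wells. These ranks are by reads, which weigh deep wells more. By counts per 10000 reads of the well, 9 of the 10 top Myh11 wells were Sparcl1-led, and the 10 top Acta2 wells were 7 Sparcl1-led and 3 mesangial-like wells. Within pools, 5 wells held 92.5% and 83.9% of the Acta2 reads in Diabetes and 79.6% and 79.9% in Control. A pool level of these genes is thus the level of a few cells.

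**Figure D3:**
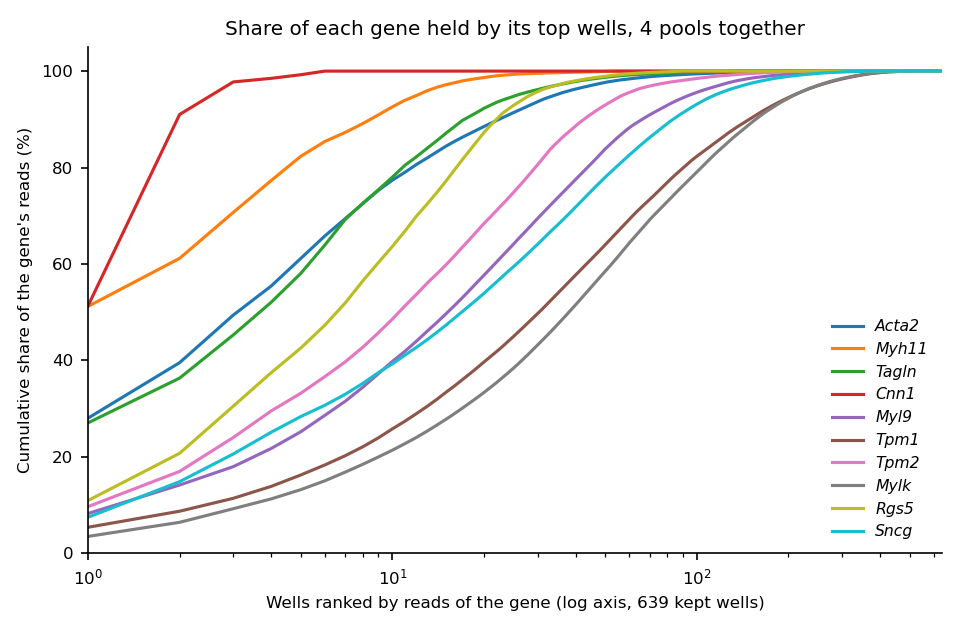
Cumulative share of a gene's reads (in %) against the rank of the well (log axis), over the 639 kept wells of the 4 pools. The curves of Cnn1, Myh11, Acta2 and Tagln rise first, with 99.3%, 82.3%, 61.2% and 58.1% in 5 wells, and those of Tpm1 and Mylk rise last.

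Over all kept wells the genes correlated positively, in part through the 19 Sparcl1-led wells. With values centred within each pool (log2 of counts per 10000 plus 1), the 45 pairwise Pearson correlations over 639 wells ran from 0.01 (Mylk with Sncg) to 0.71 (Myl9 with Tpm2), with a median of 0.34. Acta2 correlated with Tagln at 0.69, with Myh11 at 0.63, with Tpm2 at 0.59 and with Myl9 at 0.50. Without the 19 Sparcl1-led wells the median was 0.17, Acta2 with Tagln 0.49 and Acta2 with Myh11 0.30, while Myl9 with Tpm2 stayed at 0.67. Within mesangial-like wells the median over the 36 pairs with reads was 0.22. Wells of a pool share their array but not their depth, which ran from 15339 to 933339 reads in Control 2. The part of depth in these correlations was not tested. Other gene pairs were not computed as a background, and no p-value is attached to these values.

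Among 11931 other genes read in at least 5% of kept wells, those closest to the mean of the 10 members were Plac9a, Plac9b and Gm9780 (Pearson r of 0.66 each over 639 wells), followed by Hopx (0.61), Serpine2 (0.60), Mustn1 (0.59), Lmod1 (0.59), Fxyd1 (0.58), Lgals1 (0.57) and Mgp (0.56). Plac9a, Plac9b and Gm9780 lie on chromosome 14 and had nearly the same counts, so that their separate values are uncertain. Lmod1, leiomodin, nucleates actin filaments in smooth muscle. It had 231 and 9.32 CPM in the Sparcl1-led wells of Diabetes and 66.4 and 226 CPM in those of Control. Hopx and Serpine2 had served as mesangial markers, Mustn1 and Lmod1 as smooth muscle or renin cell markers and Mgp as a fibroblast marker.

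Diabetes was compared with Control on counts summed per pool, and no member passed the threshold of edgeR's test in any class. In mesangial-like wells 9 of the 10 genes were tested, Cnn1 having no reads, and edgeR's quasi-likelihood test with Benjamini-Hochberg adjustment over 10577 genes called none of them. In that comparison 0.0189% of all genes were called (2 genes). DESeq2 called 2 members, against 0.728% of all genes, and limma on mean log values none, against 0.236%. Before adjustment Acta2, Sncg, Rgs5 and Myh11 had a p under 0.05, where 3.84% of all genes did. Myh11 was tested only through its reads in Diabetes, and without it the count is 3 of 8. The mesangial-like class itself held fewer wells in Diabetes, with 8 and 19 wells (6.25% and 10.1% of kept wells) against 30 and 67 wells in Control (25% and 33%). The summed mesangial markers did not overlap between the groups in this class, and those of the other lists given here did. The summed mesangial markers (10 of 11 read in at least 25% of wells) had 6405 and 9956 CPM in Diabetes and 17428 and 14404 CPM in Control. The summed fibroblast markers (2 of 7) had 15120 and 1477 CPM in Diabetes and 4864 and 1096 CPM in Control, and the summed smooth muscle or renin cell markers (3 of 12) 237 and 599 CPM in Diabetes and 398 and 634 CPM in Control. Casq2 of the last list was at 0 in all 4 pools. In Diabetes 1 alone the fibroblast sum was above the mesangial sum. At clustering resolution 1.2 a separate fibroblast-like cluster of 10 wells formed, 4 and 0 in Diabetes and 3 and 3 in Control. The mesangial-like class then held 5 and 19 wells in Diabetes and 25 and 64 in Control. Which wells moved between these classes was not tested. The part of the markers of these lists in the levels below was not tested.

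Acta2 had the largest fitted difference in mesangial-like wells after Myh11, which had few reads. Its levels were 622 and 1846 CPM in Diabetes and 135 and 376 CPM in Control, and within each experiment the Diabetes pool was the higher. The groups did not overlap, and the pools within each group were far apart. The fitted log2 difference was 2.29 (SE 0.42, edgeR p = 0.000227, adjusted p = 0.343 over all genes). DESeq2 gave 2.35 (SE 0.50) with an adjusted p of 0.00185. The adjusted p over the other alternatives ran from 5.76e-05 to 1.00. Without Diabetes 1 the difference was 2.97, and without Diabetes 2 it was 1.2. These 2 fits left 1 Diabetes pool and had no experiment block. The well with most Acta2 held 70.6% and 39.8% of the reads of its pool's mesangial-like wells in Diabetes and 52.8% and 37.4% in Control. With that well left out of every pool the levels were 213 and 1244 CPM in Diabetes and 73.5 and 243 CPM in Control. The groups then overlapped, the Diabetes pool stayed the higher within each experiment, and the log2 difference was 1.98 (SE 0.54, edgeR adjusted p = 1.00).

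The mesangial-like well with most Acta2 reads in each pool also held the most reads of other members. In total reads these wells ranked 4 and 1 among the mesangial-like wells of their pools in Diabetes and 1 and 5 in Control, so that 2 of them were the deepest of their pool's class. Such a well was also the top well for Myh11, Tagln, Rgs5 and Sncg in Diabetes 1, for 6 other members in Diabetes 2, for Myl9, Tpm1 and Rgs5 in Control 1 and for Tagln, Tpm2, Mylk and Rgs5 in Control 2. Per 10000 reads of the well, Acta2 had 31.6 and 69.3 in these wells in Diabetes, against highest values of 31.6 and 72.4, and 5.36 and 43.8 in Control, against highest values of 6.05 and 43.8. The Control 1 well had 0 Tagln reads. These 4 wells had reads of 8 and 10 of the 11 mesangial markers in Diabetes and of 11 and 9 in Control, where the median well had 4 and 10 in Diabetes and 9 and 10 in Control. Their summed mesangial markers per 10000 reads were 157 and 62.4 in Diabetes and 218 and 83.2 in Control, against 29.4 and 109 (Diabetes) and 180 and 143 (Control) in the median well. Fibroblast markers summed to 23.3 in the Control 2 well, against 0.934 in its pool's median well. They had reads of 4 and 8 of the 12 smooth muscle or renin cell markers in Diabetes and of 3 and 7 in Control, where the median well of the pool had 1.5 and 4 in Diabetes and 1 and 2 in Control.

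Counted per well, Acta2 differed in the same direction, but not every member did. After thinning, Acta2 was read in 5 of 6 (83.3%) and 8 of 19 wells (42.1%) of the mesangial-like class in Diabetes and in 5 of 28 (17.9%) and 20 of 67 wells (29.9%) in Control. Exact binomial 95% intervals, which cover counting error only, were 35.9 to 99.6% and 20.3 to 66.5% in Diabetes and 6.06 to 36.9% and 19.3 to 42.3% in Control. The interval of each Diabetes pool overlapped those of both Control pools. Tagln was read in 3 of 6 and 7 of 19 wells in Diabetes and in 5 of 28 and 13 of 67 in Control, and Rgs5 in 3 of 6 and 8 of 19 in Diabetes and 7 of 28 and 3 of 67 in Control. The shares of Tpm1 and Tpm2 were also higher in both Diabetes pools than in either Control pool. Those of Sncg overlapped, with 2 of 6 and 11 of 19 in Diabetes and 7 of 28 and 25 of 67 in Control. Overlap was also seen for Myl9 (4 of 6 and 18 of 19, against 26 of 28 and 60 of 67) and for Mylk (4 of 6 and 18 of 19, against 25 of 28 and 61 of 67). At least 6 of the 10 members were read in 3 of 6 and 10 of 19 wells in Diabetes, against 3 of 28 and 9 of 67 in Control. Before thinning, mesangial-like wells had a median of 3347 and 4975 genes in Diabetes and 1836.5 and 3355 in Control. Their median reads were 83493 and 256000 in Diabetes and 28204 and 183966 in Control. Both were higher in Diabetes within each experiment. Their part in these shares was not tested, and no such share was computed over all genes. With 2 pools a group an exact permutation test cannot reach a p under 0.05, and none is given.

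**Figure D4:**
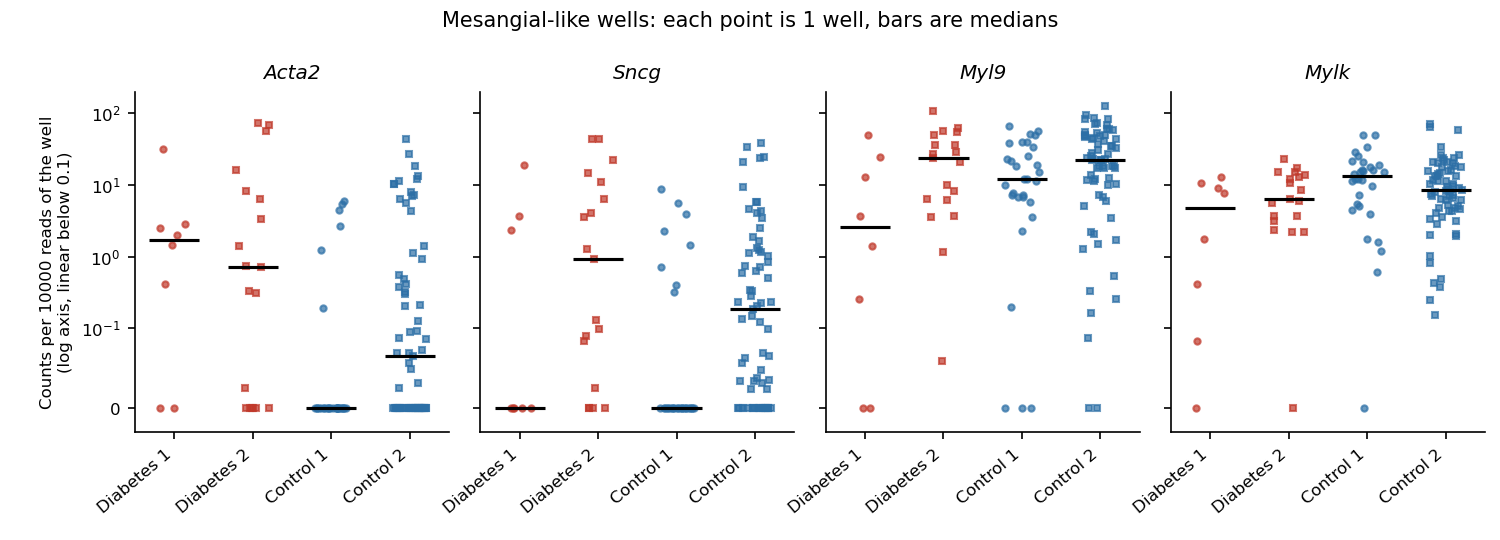
Acta2, Sncg, Myl9 and Mylk in every mesangial-like well, in counts per 10000 reads of the well (log axis, linear below 0.1), by pool, with the median as a bar. The Diabetes 1 column holds 8 wells, the highest Acta2 wells had 31.6 and 72.4 in Diabetes and 6.05 and 43.8 in Control, and Mylk medians were 4.74 and 6.29 in Diabetes and 13.4 and 8.49 in Control.

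Sncg, too, had Diabetes pools above both Control pools in the mesangial-like wells. It had 407 and 1154 CPM in Diabetes and 104 and 252 CPM in Control, a log2 difference of 2.12 (SE 0.46, edgeR adjusted p = 0.655). DESeq2 gave an adjusted p of 0.0139. Without the top well of each pool it had 160 and 768 CPM in Diabetes and 59.1 and 218 CPM in Control. The groups then overlapped, the Diabetes pool stayed the higher within each experiment, and the log2 difference was 1.66 (SE 0.55, edgeR adjusted p = 1.00). Without Diabetes 1, in a fit with no experiment block, the log2 difference of Sncg was 2.82. With each pool left out in turn it ran from 1.12 to 3.10. Myh11 passed the filter on low counts through the Diabetes pools, with 12 and 100 reads there and 0 and 2.11 in Control, and 100% and 79.0% of the Diabetes reads lay in 1 well of each pool. No fold is given for it.

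None of the other members passed the test in these wells. Rgs5 had a log2 difference of 1.55 (SE 0.63, edgeR adjusted p = 1.00), with groups that overlapped. Tpm1 (0.80, SE 0.42), Tpm2 (0.66, SE 0.45) and Tagln (0.36, SE 0.62) had positive fitted differences and Myl9 one of -0.06 (SE 0.28). Mylk had a negative one, with 701 and 984 CPM in Diabetes and 1589 and 1217 CPM in Control (-0.70, SE 0.40, edgeR adjusted p = 1.00). The median over the 8 tested members other than Myh11 was 0.73, and over all genes tested -0.16. Both Diabetes pools lay above both Control pools for 3 of these 8 (Acta2, Tpm1 and Sncg), where 12.8% of all genes did, and below for 1 (Mylk), where 20.3% did. Myh11 is left out of these counts because its place was set by the filter on low counts.

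In endothelial-like wells 0 of 9 tested members were called by edgeR, where 0.008% of 12499 genes were (1 gene). The count at an unadjusted p under 0.05 was 1 (4.21% of all genes), by DESeq2 1, where it called 0.584% of all genes, and by limma 0, where it called 0.288%. Both Diabetes pools lay above both Control pools for 1 of the 9 members (17.7% of all genes) and below for 2 (12.7%). The gene with the low p was Myl9, with 3.03 and 62.8 CPM in Diabetes and 97.4 and 185 CPM in Control, a log2 difference of -3.09 (SE 0.88, edgeR adjusted p = 1.00, DESeq2 adjusted p = 0.0116). Without Diabetes 2, in a fit with no experiment block, the log2 difference of Myl9 was -5.68. With each pool left out in turn, that of Myl9 ran from -5.68 to -1.11. Its levels were below those of the empty wells, which had 116 and 1278 CPM in Diabetes and 312 and 954 CPM in Control. Sncg overlapped between the groups in these wells (log2 difference 0.19, SE 0.52, edgeR adjusted p = 1.00). In immune-like wells 6 members were tested and 0 called by edgeR, where 0.0462% of 8656 genes were, with 0 at an unadjusted p under 0.05 (3.88% of all genes) and 0 by DESeq2 (0.0924% of all genes) or limma (0%).

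The Diabetes difference was also compared between classes. The largest gap for Acta2 was between mesangial-like and immune-like wells, with a log2 value of 3.30 (SE 1.32, adjusted p = 0.624 by edgeR), and against endothelial-like wells the gap was 3.2 (SE 1.29, edgeR adjusted p = 1.00). Of the 9 members tested in each of 3 such comparisons, 0 were called by edgeR, where 0 to 2 of 13398 genes were (0%, 0.00746% and 0.0149%). No other tool was run on these differences. Unadjusted p-values were under 0.05 for Acta2 and Myl9 between mesangial-like and endothelial-like wells, where 2.11% of all genes were, and for Acta2 and Sncg between mesangial-like and immune-like wells, where 7.93% were. No value is given for Myh11, which had 0 and 2.11 reads in the mesangial-like wells of Control.

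Summed over all kept wells of a pool, where fewer cells of a class and less RNA per cell cannot be told apart, the contractile genes gave a different picture. Mylk had 236 and 410 CPM in Diabetes and 753 and 656 CPM in Control, and the groups did not overlap (log2 difference -1.12, SE 0.35, edgeR adjusted p = 0.566). Myl9 had 406 and 786 CPM in Diabetes and 656 and 1578 CPM in Control (-0.79, SE 0.26, edgeR adjusted p = 0.615). Acta2 had 232 and 339 CPM in Diabetes and 95.3 and 453 CPM in Control, with overlap (0.49, SE 0.44, edgeR adjusted p = 0.964). Both Diabetes pools lay above both Control pools for 0 of the 9 members (15.9% of all genes) and below for 1, Mylk (17.8%). edgeR called 0 of 9 members, where 0.0783% of 15330 genes were called (12 genes). The count at an unadjusted p under 0.05 was 2 (7.36% of all genes). DESeq2 called Mylk (adjusted p = 0.0437), where it called 3.67% of all genes, and limma on mean log values called Mylk (adjusted p = 0.0409) and Myl9 (adjusted p = 0.00616), where it called 0.691%. Beside these values stand the shares of the classes richest in Mylk. The mesangial-like share is given above, and podocyte-like wells were 0.781% and 5.32% of kept wells in Diabetes and 17.5% and 11.3% in Control.

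The empty wells also had less Mylk in both Diabetes pools than in either Control pool. They had 128 and 353 CPM in Diabetes and 535 and 781 CPM in Control (log2 difference -1.60, SE 0.51, edgeR adjusted p = 0.419). For Acta2 they had 62.3 and 147 CPM in Diabetes and 38.4 and 390 CPM in Control (-0.41, SE 0.63, edgeR adjusted p = 0.998). In the empty wells edgeR called 0 of 9 members and 0 of 11382 genes (0%), with 1 member at an unadjusted p under 0.05 (7.23% of all genes) and 0 members by DESeq2 (1.29% of all genes). Both Diabetes pools lay above both Control pools for 0 of the 9 (17.2% of all genes) and below for 2, Myh11 and Mylk (15.9%).

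**Figure D5:**
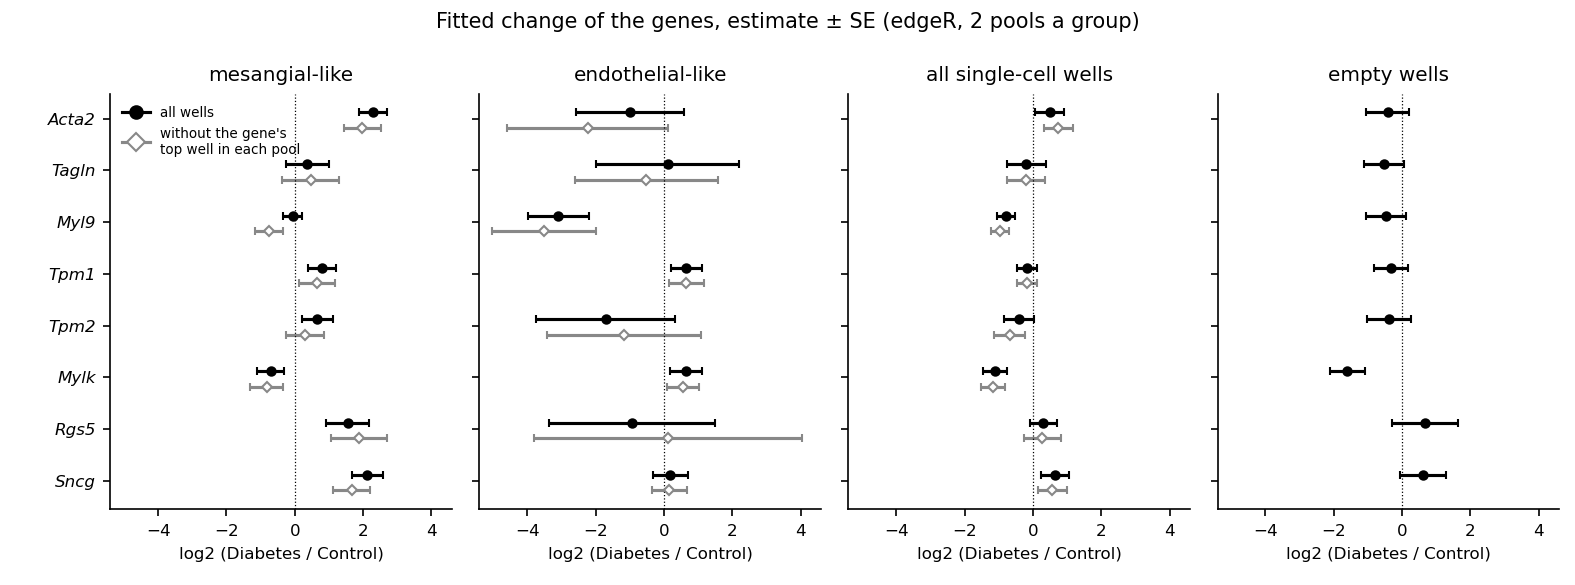
Fitted log2 difference (Diabetes over Control) ± SE for 8 members in 4 sets of wells, from 2 pools a group, with all wells (black) and without the gene's top well in each pool (grey). Acta2 in mesangial-like wells was at 2.29 with all wells and 1.98 without, and Mylk lay below 0 in all sets but the endothelial-like wells.

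Other genes of the contractile machinery were read from 3 lists, and edgeR called none of their members in any of the 5 comparisons. In mesangial-like wells 12 of 16 other smooth muscle genes were tested, with 6 positive and 6 negative and a median log2 difference of 0.06, where 45.3% of all genes were positive. The 1 with an unadjusted p under 0.05 was Csrp2, named here after its values were seen, a LIM domain protein of smooth muscle. It had 171 and 64.3 CPM in Diabetes and 17.002 and 4.57 CPM in Control, a log2 difference of 3.61 (SE 1.201, edgeR adjusted p = 1.00), and DESeq2 called it (adjusted p = 0.0437). The caldesmon Cald1, which restrains actin and myosin, was the most abundant of them over all wells. It had 2529 and 2841 CPM in Diabetes and 2541 and 2534 CPM in Control in mesangial-like wells, and 3176 and 2139 CPM in Diabetes and 1934 and 3179 CPM in Control in the Sparcl1-led wells. Smtn, smoothelin, had 57.6 and 193 CPM in Diabetes and 132 and 268 CPM in Control in mesangial-like wells. Actg2, the smooth muscle actin of the gut, had 0 reads in both classes.

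The non-muscle relatives, which serve every cell, had a median log2 difference of 0.11 over 13 genes in mesangial-like wells and 0 with an unadjusted p under 0.05. Actb had 3679 and 5493 CPM in Diabetes and 4224 and 4312 CPM in Control, and Myl6, the essential light chain, 1252 and 2367 CPM in Diabetes and 1480 and 1885 CPM in Control. Of 21 genes that control contraction or its gene programme, 19 were tested in mesangial-like wells, with 5 positive and 14 negative, a median of -0.24 and 3 at an unadjusted p under 0.05, against 45.3% positive, a median of -0.16 and 3.84% over all genes tested. Over all kept wells DESeq2 called 5 genes of the 3 lists, 4 of them from this control list, where it called 3.67% of all genes. Myocd, myocardin, the coactivator of serum response factor in smooth muscle, had 272 and 177 CPM in Diabetes and 33.2 and 142 CPM in Control in the Sparcl1-led wells, and at most 2.43 CPM in any mesangial-like pool.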

How the data were processed

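Single cells from glomeruli of 4 pools of mice were sequenced on Fluidigm C1 HT arrays, 400 wells a pool. The authors deposited an expected count per gene and well for each experiment, and 74.1% and 79.3% of the non-zero values were whole in experiments 1 and 2. The submitters' processing notes name cutadapt 1.11, STAR 2.4.2a, BWA 0.7.17-r1188, featureCounts 1.5.1 and mm10, with no order or settings. GENCODE M21 gave names to 45143 of 45792 gene IDs.

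Wells imaged with 1 cell, at least 500 genes and at most 30% mitochondrial reads were kept (639 of 833). The 10 genes and related contractile genes were left out of the 2000 variable genes, each gene was brought to a common mean and variance per experiment, and wells were clustered with scanpy 1.11.5 (15 components, 15 neighbours, Leiden resolution 0.8, seed 0). A cluster was named where at least 3 markers of a list had reads in at least 25% of its wells and that list had the most genes among its 50 leading genes and among its top 10. This naming rule was settled after the clusters had been seen. Earlier versions of it left endothelial clusters unnamed or named a smooth muscle or renin cell cluster, and the fits were made only with the last version. The members and lists were chosen with earlier results of these data known. No doublet caller was run, and wells imaged with several cells were left out.

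Wells are not replicates. Counts were summed per pool and class, rounded to whole numbers and tested with edgeR 4.0.16 (quasi-likelihood test, TMM scaling, filterByExpr, experiment as a block), with Benjamini-Hochberg adjustment over all genes of a comparison and a threshold of 0.05. With experiment as a block and 2 pools a group, the p-values rest on how far the Diabetes difference disagreed between the 2 experiments. The dispersion also borrows from other genes. SEs were derived from the quasi-F statistic. CPM are counts per 1000000 of the summed counts. Classes with under 5 wells in a pool were not tested. Wells were thinned to 10000 reads for shares of wells with a read, with exact binomial 95% intervals. The labels place same-numbered pools on 1 array, and their deviations from the group means correlated at 0.11 to 0.18 over genes. Alternatives were DESeq2 1.42.0, limma 3.58.1 on mean log values, RLE scaling, other filters, other clusterings, no block and each pool left out. The fits with a pool left out had no block and left 1 pool in a group, so their calls have no replicate in that group. On simulated counts of mesangial-like wells, 95% of genes changed 4-fold were recovered at a squared coefficient of variation of 0.04, and 0% at 0.4. For genes changed 16-fold the values were 97% and 5%. Each simulation used 1 dispersion for all genes and no experiment effect, so these values do not give the power for the members. The genes named are the 10 members, the 10 genes most like them and the 2 most abundant of each contractile list. Lmod1 is the only one of the 10 most alike given with levels, and Actg2, Csrp2 and Myocd were added after their values were seen. The values of some genes of these lists are not reported here.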

Additional observations from a re-analysis of the deposited data

How the results depend on the processing

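Of 405 log2 differences of single members recomputed under alternatives or with a pool left out, 342 kept their direction and side of the threshold, 16 kept the direction and passed it, and 47 changed sign. The number of members called in mesangial-like wells was 2 with no filter on low counts, with DESeq2, with no filter on wells and at resolution 1.2, 1 after thinning, and 0 to 2 when a pool was left out. It was 1 with DESeq2 in endothelial-like wells (0 to 1 with a pool left out), and 1 with DESeq2 and 2 with limma over all wells. Without the replicate block, 0 genes were called in mesangial-like and in immune-like wells and 1 over all wells. In that fit Myl9 (mesangial-like) was at 0.0037, Tagln and Sncg (endothelial-like) at -0.17 and -0.25 and Rgs5 (all wells) at -0.069.

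Genes called in mesangial-like wells, 2 in the report, were 37 without the low-count filter, 77 with DESeq2, 0 with mitochondrial reads of at most 15%, 19 without the well filter, 14 at resolution 1.2, 20 after thinning, 25 with limma, 0 in 1 fit over all tested classes and 5 to 48 with a pool left out. In endothelial-like wells, 1 in the report, they were 4 with RLE scaling, 12 without the low-count filter, 73 with DESeq2, 4 at 15% mitochondrial reads, 3 after thinning, 36 with limma and 0 to 16 with a pool left out. In immune-like wells, 4 in the report, they were 14, 8 with DESeq2, 0 with limma, 2 in the joint fit and 0 to 366 with a pool left out, the first without the low-count filter. Over all wells, 12 in the report, they were 36 without the low-count filter, 562 with DESeq2, 0 at 15% mitochondrial reads, 0 without the well filter, 106 with limma and 10 to 169 with a pool left out. In empty wells they were 169 without the low-count filter, 147 with DESeq2 and 0 to 145 with a pool left out. The thinned and 15% settings could not be run in immune-like wells, where a pool had under 5 wells. The causes were not tested.

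These log2 differences changed sign. In mesangial-like wells Tagln was at -0.16 after thinning, and Myl9 at 0.16 (15% mitochondrial reads), 0.21 (no well filter), 0.0017 (members kept in clustering) and 0.24 (resolution 1.2). In endothelial-like wells Tagln was at -1.16 (15%), -0.32 (members kept), -1.40 (resolution 1.2), -0.0024 (limma) and -0.51 (without the top well), Rgs5 at 0.11 (without the top well), and Sncg at -0.21 (thinned) and -0.059 (limma). Over all wells Acta2 was at -0.095 (limma), Myh11 at -0.50 (15%) and -0.034 (no well filter), Tagln at 0.031 and Tpm1 at 0.055 (both 15%), and Rgs5 at -0.14 (thinned) and -0.084 (limma). With a pool left out, the ranges over all wells were -0.68 to 1.75 for Acta2, -1.62 to 1.51 for Myh11, -1.54 to 0.042 for Myl9, -1.12 to 1.90 for Rgs5, -0.53 to 2.02 for Sncg, -0.98 to 0.45 for Tagln, -0.55 to 0.22 for Tpm1 and -1.31 to 0.51 for Tpm2. In endothelial-like wells they were -2.74 to 0.59 for Acta2, -2.67 to 1.02 for Rgs5, -1.02 to 1.45 for Sncg and -0.82 to 1.21 for Tagln, and in mesangial-like wells -0.67 to 0.48 for Myl9 and -0.13 to 0.85 for Tagln.

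At 15% mitochondrial reads the mean level over the 4 pools of mesangial-like wells was 423 CPM for Myh11, 801 for Tagln, 40.0 for Cnn1, 670.3 for Tpm2 and 677 for Rgs5. In endothelial-like wells Tagln averaged 5.59 (resolution 1.2), 4.73 (15%) and 5.47 CPM (no well filter), and Cnn1 0.274 CPM (15%). Without the well filter podocyte-like wells averaged 26.8 CPM for Acta2, 1.43 for Myh11, 90.9 for Myl9, 12.8 for Tpm2, 909.7 for Mylk and 13.01 for Rgs5. Ranked by counts per 10000 reads of the well, the top 5 wells held 33.4% of Acta2, 66.0% of Myh11, 46.6% of Tagln, 99.5% of Cnn1, 13.5% of Myl9, 12.1% of Tpm1, 20.7% of Tpm2, 10.4% of Mylk, 50.8% of Rgs5 and 15.0% of Sncg. Without thinning, the share of mesangial-like wells with a read was 50.8% for Acta2, 7.26% for Myh11, 41.9% for Tagln, 85.5% for Tpm1, 69.4% for Tpm2, 97.6% for Mylk, 26.6% for Rgs5 and 61.3% for Sncg. The 8 mesangial-like wells of Diabetes 1 and the 4 pools limit what differences could be shown.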
